A study of Mus musculus with 9 samples.

Results

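The enzymes described here oxidise and conjugate foreign compounds, drugs and many of the body's own lipids. They are 99 of the 18193 genes measured on the arrays, read by 124 probe sets. A gene was taken as a member by its symbol, as a cytochrome P450 of families 1 to 4 (Cyp), a cytosolic glutathione S-transferase (Gst), a UDP-glycosyltransferase (Ugt) or a sulfotransferase (Sult). There were 56 Cyp, 19 Gst, 11 Ugt and 13 Sult members. Where several probe sets carry a gene's symbol and no other, the values are those of the probe set that was brightest over the 9 arrays.

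Cytochrome P450 enzymes are haem proteins of the endoplasmic reticulum that insert oxygen into a substrate, the step called phase I. In phase II, glutathione S-transferases, UDP-glucuronosyltransferases and sulfotransferases couple glutathione, glucuronic acid or sulfate to the product, which makes it more soluble and easier to export. The intestinal epithelium carries many of these enzymes, so that swallowed compounds are partly metabolised before they reach the liver, and nuclear receptors and other sensors set their level.

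RNA came from intestinal epithelial cells of mouse pups on postnatal day 0, with 3 arrays for each of 3 genotypes. The control group was Tfr1fl/fl (wildtype). The knockout group was Tfr1 IEC-KO, in which the transferrin receptor, the carrier of transferrin-bound iron into cells, is targeted in intestinal epithelial cells. The rescue group was Tfr1 IEC-KO;ROSA26 Tfr1R654A/+, the same knockout with 1 ROSA26 allele that adds a Tfr1 with the R654A change. Cells of the small intestine and proximal colon were shaken off in 2 mM EDTA for 30 min and passed a 70 µm mesh, with no sort by a surface marker named in the labels. The Cre driver, the sex of the pups and the number of pups behind an array are not given in the labels, so p-values measure only the spread between these arrays, which may be technical.

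Several facts of the arrays touch the results. The targeted gene, Tfrc, was read by 3 probe sets. The 1 that represents it read 10.21, 10.78 and 9.88 on control arrays, 10.76, 11.16 and 9.07 on knockout arrays and 10.91, 10.22 and 11.11 on rescue arrays (log2). The other 2 gave rescue minus knockout differences of 4.98 and 4.53, and knockout minus control differences of -0.28 and -0.36 (limma adjusted p = 0.28 and 0.134). The deleted part was not placed against these probe sets, so the values do not check the deletion. Arrays of a group correlated with r of 0.994 to 0.996 in control, 0.951 to 0.985 in knockout and 0.987 to 0.990 in rescue, taken across genes, and genes are not replicates.

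The labelled cell type was present on every array: the mean level of 15 enterocyte markers was 12.20 to 12.23 on control arrays, 11.83 to 12.12 on knockout arrays and 12.11 to 12.21 on rescue arrays (log2). Markers of other cells differed within the knockout group. The mean of 14 fibroblast markers was 6.88 to 7.41 in control and 7.66 to 8.18 in rescue, but 10.50, 9.97 and 7.51 in knockout replicates 1, 2 and 3. Of these 14, 3 rose in the knockout by limma's test, and 1, 1 and 4 were dim on the 3 knockout arrays. The mean of 8 smooth muscle markers followed the same order, at 9.10, 8.16 and 6.41 against 6.06 to 6.09 in control. Alb, the serum albumin gene of hepatocytes, read 9.09, 8.96 and 5.50 in knockout against 5.14 to 5.70 in control and 5.11 to 5.40 in rescue. Alb is 1 of 13 hepatocyte markers measured, and its value in knockout replicate 3 lay within the control range. Of the 13 markers 1 rose and 4 fell in the knockout by limma's test, and the test of Alb itself is not given here. The mean of the 13 was 7.75, 7.94 and 7.63 on knockout arrays against 7.98 to 8.25 in control. The means of several other lists lay above control on all 3 knockout arrays. Of 8 enteroendocrine markers 6 rose, and their mean was 9.36, 9.48 and 9.50 in knockout against 8.10 to 8.41 in control and 8.55 to 8.94 in rescue. Of 6 mesothelium markers 4 rose (mean 8.08, 8.93 and 7.64 against 6.83 to 7.13 in control), as did 2 of 7 goblet markers (11.61, 11.75 and 11.51 against 10.41 to 10.92). The leukocyte mean was 8.23, 7.93 and 7.16 against 6.58 to 6.95 in control, with 2 of 9 markers up and 1 down. The neuron and glia mean was 7.90, 6.65 and 5.70 against 5.54 to 5.59, with 0 of 6 markers called. That of 7 ileum markers was 10.05, 9.84 and 10.12 against 9.43 to 9.69, with 2 up and 1 down. Other lists exceeded control on only part of the knockout arrays. The mean of 6 pancreas markers was 6.74, 8.79 and 7.11 in knockout and 6.55, 6.45 and 8.45 in rescue, against 6.69 to 6.90 in control, with 0 called. The endothelium mean was 7.80, 7.03 and 6.44 in knockout against 5.73 to 6.62 in control, with 1 of 8 markers up. The part of these cells in the members' changes was not tested. In bulk RNA, fewer cells of a type and less RNA per cell cannot be told apart.

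The rescue arrays differed from the others in sex-specific transcripts. Xist, the RNA of the inactive X chromosome, read 12.10 to 12.31 on control arrays, 12.02 to 12.75 on knockout arrays and 6.45 to 6.83 on rescue arrays. The Y-linked Eif2s3y read 2.34 to 2.88 in control and knockout and 9.36 to 9.70 in rescue. In every comparison with the rescue group, genotype and sex therefore cannot be told apart.

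A gene is called dim in a group where its mean lies in the lowest 40% of that group's genes, which ends at 6.18, 6.30 and 6.21 (log2) in control, knockout and rescue. By this rule 52 of the 99 members were dim in all 3 groups: 36 Cyp, 3 Gst, 5 Ugt and 8 Sult. The other 47 members, 20 Cyp, 16 Gst, 6 Ugt and 5 Sult, lay above the limit in at least 1 group. For 17 members the name of the probe set ends in _x_at, _s_at or _a_at. Such probe sets can read several transcripts, from near-identical copies or, mainly for _a_at, from the same gene. Of the 17, 7 are among the 31 called below. They are Cyp2c65 and Cyp4v3 (_s_at) and Cyp2f2, Gstm6, Gstp1, Gstz1 and Sult1a1 (_a_at). Where the lower of 2 group means is dim, the fold is a lower bound and is written with "at least".

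Enzymes of both phases differed between knockout and control, with rises mostly among Cyp members and falls mostly among Gst and Ugt members. Of the 99 members, 31 passed the test (limma on log2 RMA values, adjusted p under 0.05 over all genes), 14 higher and 17 lower in the knockout. Over all 18193 genes 14.1% passed, 5.29% higher and 8.77% lower. Among Cyp members 12 of 56 rose and 6 fell, whereas 1 of 19 Gst members rose and 8 fell. Of the 11 Ugt members 3 fell and the other 8 did not pass, and of the 13 Sult members 1 rose and the other 12 did not pass. The median change was 0.03 over the members and -0.04 over all genes (log2), and the members' median was -0.0547 once each array was centred on its own median. By class it was 0.10 for Cyp, -0.72 for Gst, -0.20 for Ugt and 0.16 for Sult. All 3 knockout arrays lay above all 3 control arrays for 22 members and below them for 21, where 12.7% and 19.7% of all genes did so, 32.4% in all. Of the 47 members above the dim limit in at least 1 group, 25 passed, where 20.2% of all genes above it passed. That set holds some members only because they were high in 1 group. Of the 52 members dim throughout, 6 passed, 2 higher and 4 lower, where 3.44% of all genes dim throughout passed.

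**Figure D1:**
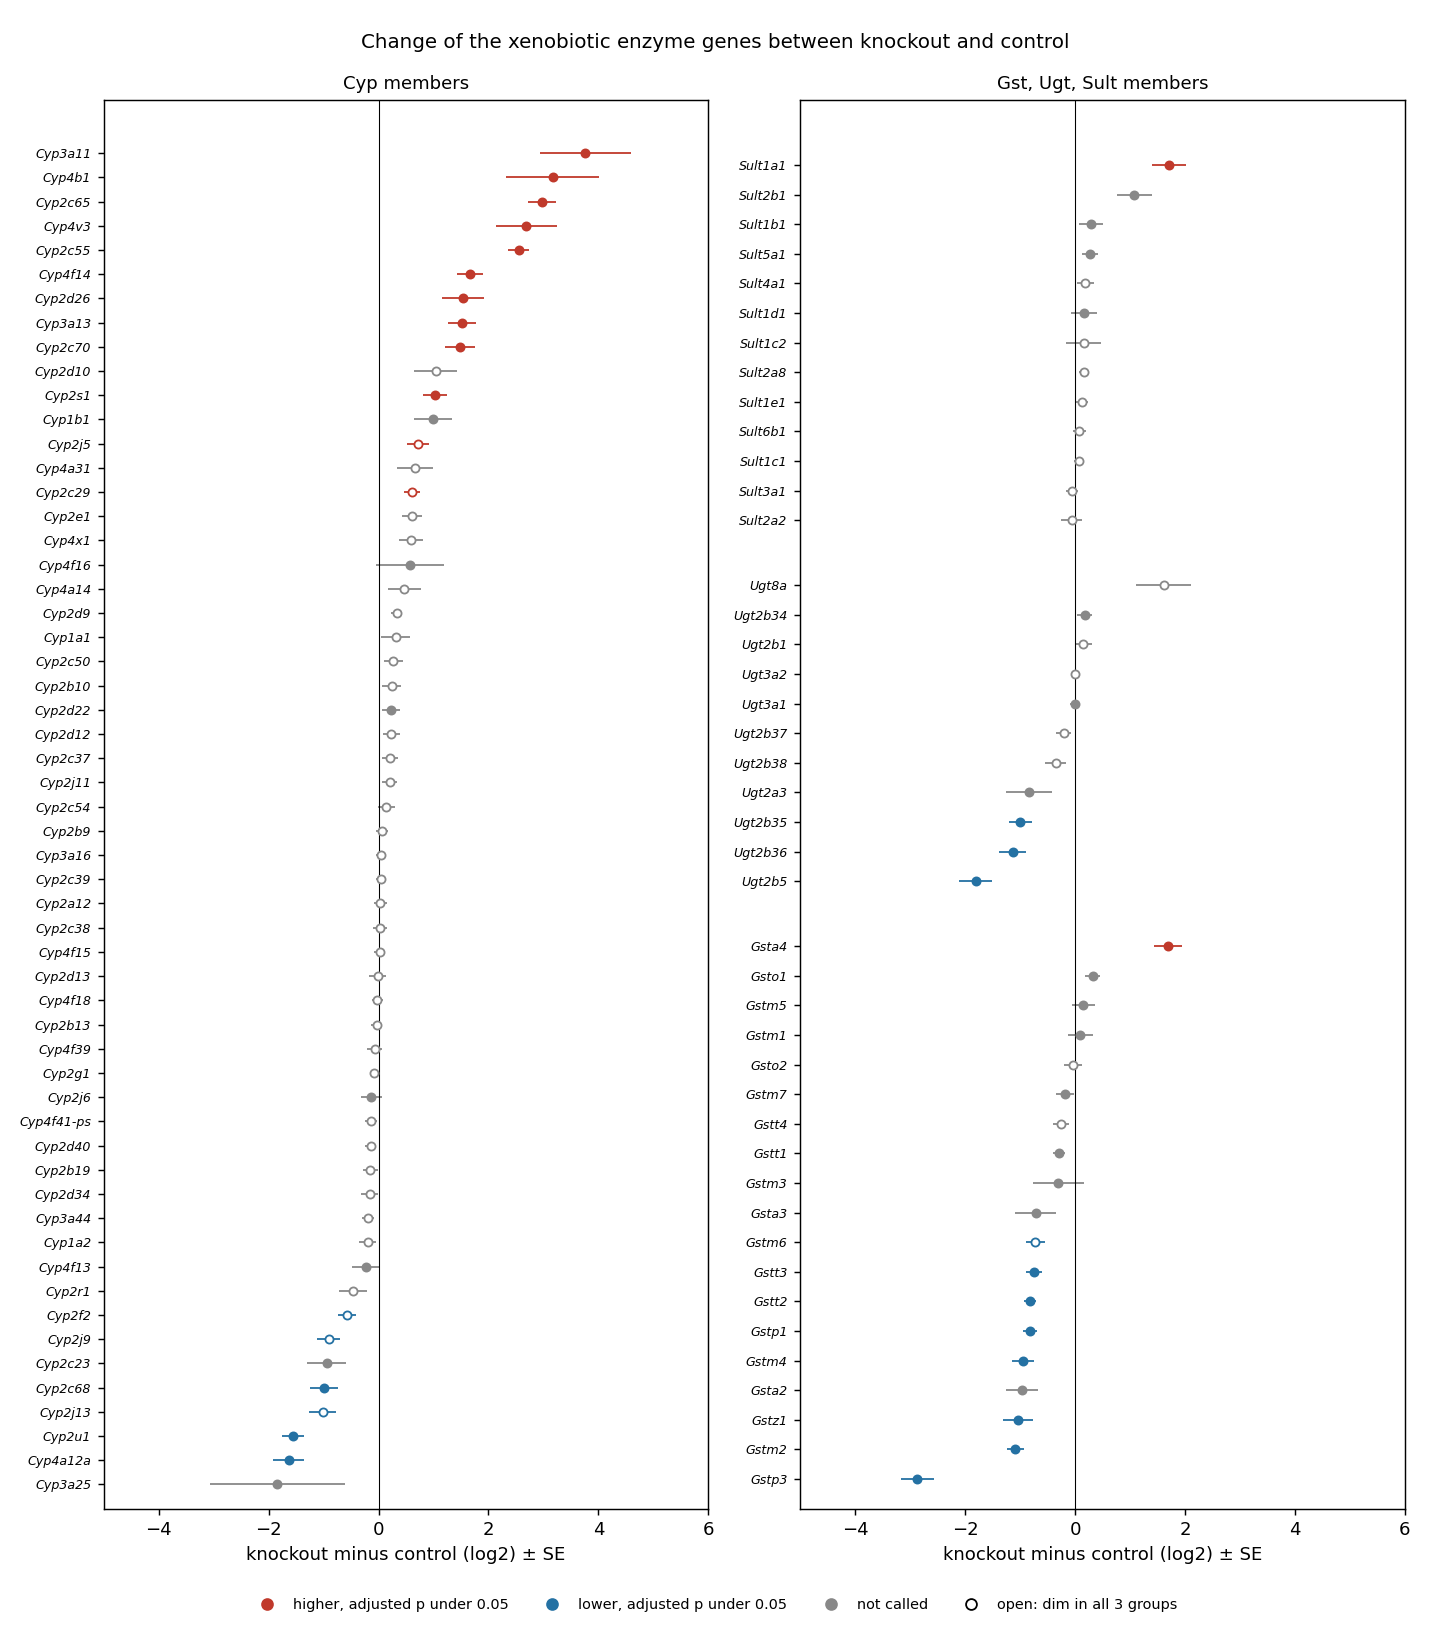
Change of each member between knockout and control (log2, mean difference with its standard error, n = 3 arrays per group), with members past an adjusted p of 0.05 in red (higher) or blue (lower) and open symbols for members dim in all groups. Cyp members spread mostly to the right of 0, up to 3.76 for Cyp3a11, and Gst members mostly to the left, down to -2.87 for Gstp3.

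Counts of calls depended on single arrays. The 31 calls became 18, 18 and 14 when control replicate 1, 2 or 3 was left out. A call held in every one of the 9 fits that leave out 1 array for 14 of the 31 members: 7 Cyp, 5 Gst, 1 Ugt and 1 Sult.

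Many members lie in clusters of neighbours. On chromosome 19, 10 Cyp2c members follow each other with gaps under 1 Mb. Of these 10, 4 rose in the knockout, Cyp2c29, Cyp2c55, Cyp2c65 and Cyp2c70, and Cyp2c68 fell. Cyp2c enzymes oxidise drugs and arachidonic acid. Cyp2c55 and Cyp2c65 had the smallest p-values among the Cyp members, and their promoters are shown for the members that rose, as the 120 bases before the start (RefSeq, GRCm38.p6). Capitals mark matches, on either strand, to the motifs whose shares are given after the enzyme values.
Cyp2c55, chr19:39006899-39007018, plus strand: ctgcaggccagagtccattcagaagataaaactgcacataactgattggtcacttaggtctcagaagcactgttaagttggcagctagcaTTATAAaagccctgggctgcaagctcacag
Cyp2c65, chr19:39060886-39061005, plus strand: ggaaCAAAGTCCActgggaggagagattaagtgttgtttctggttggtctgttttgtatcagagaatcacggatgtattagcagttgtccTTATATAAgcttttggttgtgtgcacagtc

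Cyp2c55 read 5.74, 5.80 and 5.70 on control arrays, 8.50, 8.53 and 7.87 on knockout arrays and 6.60, 6.76 and 6.30 on rescue arrays (log2). The 3 groups did not overlap, with the rescue arrays between the others. Its level rose at least 5.86-fold in the knockout, by 2.55 ± 0.19 (SE, limma adjusted p = 0.000325), and the control mean was dim. Cyp2c65 read 7.21, 8.11 and 8.14 on control arrays, 10.44, 10.98 and 10.98 on knockout arrays and 9.75, 9.94 and 10.09 on rescue arrays. It rose 7.88-fold in the knockout, by 2.98 ± 0.26 (adjusted p = 0.000643), and again the groups did not overlap. Its probe set is of a kind that can also read near-identical copies, so the value may include other Cyp2c genes.

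Cyp2c70, known in mouse liver for making muricholic bile acids, read 8.30, 8.81 and 8.80 on control arrays and 9.75, 9.83 and 10.77 on knockout arrays, a rise of 1.48 ± 0.27 (adjusted p = 0.00928). Cyp2c68, of the same cluster, read 9.96 to 10.20 on control arrays and 9.30, 8.50 and 9.53 on knockout arrays, and fell by 0.99 ± 0.26 (adjusted p = 0.0388). This call held in 2 of the 9 fits that leave out 1 array. Cyp2c29 was dim in all groups and rose by 0.61 ± 0.15 (adjusted p = 0.0316), a call that held in 4 of 9 such fits.

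Cyp3a enzymes oxidise a wide range of drugs. Cyp3a13, a member known from mouse intestine, read 11.15, 11.35 and 11.37 on control arrays, 12.39, 12.60 and 13.43 on knockout arrays and 12.16, 12.31 and 11.83 on rescue arrays. Knockout lay above both other groups, and the rise over control was 2.85-fold, by 1.51 ± 0.25 (adjusted p = 0.00713). Cyp3a11, the main inducible Cyp3a of mouse liver and a target of the pregnane X receptor, read 6.02, 7.12 and 5.75 on control arrays, 8.30, 9.92 and 11.95 on knockout arrays and 6.64, 7.88 and 6.85 on rescue arrays. The knockout arrays differed widely among themselves but all lay above control. The rise was 13.6-fold, by 3.76 ± 0.82 (adjusted p = 0.0201), and it no longer passed without control replicate 1 (adjusted p = 0.0739) or control replicate 3 (0.081). It was 7.05-fold without knockout replicate 3 and 24.9-fold without knockout replicate 1. The control mean of 6.29 lay just above the dim limit, with 2 of the 3 control arrays below it.

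Cyp3a11 was highest in knockout replicate 3, where the mean of the fibroblast markers was 7.51, that of the hepatocyte markers 7.63 and that of the enteroendocrine markers 9.50. The mean of 8 proximal small intestine markers stood in the order of Cyp3a11, at 10.12, 10.36 and 10.78 in knockout against 10.575 to 10.626 in control. Of these markers 0 rose and 1 fell by limma's test. The enterocyte mean had that order too, at 11.83, 11.85 and 12.12 in knockout. The part of other cells or of gut region in the Cyp3a11 values was not tested. Cyp4b1, an enzyme that oxidises fatty acids and activates some protoxins, had the same order, at 7.21, 9.16 and 11.43 in knockout against 5.99, 6.14 and 6.15 in control. It rose at least 9.01-fold, by 3.17 ± 0.85 (adjusted p = 0.0416), a call that held in 2 of 9 fits that leave out 1 array. Cyp4v3, a fatty acid hydroxylase, read 7.41, 8.08 and 9.94 against 5.52, 5.88 and 5.97, with a dim control mean. It rose by 2.68 ± 0.55 (adjusted p = 0.0164), a call that held in 6 of 9 such fits. The gene's other probe set gave 1.94 and did not pass (limma over single-symbol probe sets, adjusted p = 0.071). Without knockout replicate 3 the changes of Cyp4b1 and Cyp4v3 were 2.09 and 1.95, and without knockout replicate 1 they were 4.20 and 3.22. Of the 12 Cyp members that rose, 7 were farthest from control in knockout replicate 3, 5 in replicate 2 and 0 in replicate 1.

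Among the other members that rose, Cyp4f14, which hydroxylates leukotrienes and fatty acids, read 5.25 to 5.50 on control arrays, 6.91, 6.56 and 7.62 on knockout arrays and 5.96 to 6.16 on rescue arrays. It rose at least 3.16-fold, by 1.66 ± 0.24 (adjusted p = 0.0038). Cyp2d26, a mouse member of the debrisoquine hydroxylase family, read 10.34, 10.96 and 10.59 on control arrays, 11.49, 12.28 and 12.73 on knockout arrays and 10.16, 11.38 and 10.89 on rescue arrays. It rose by 1.54 ± 0.38 (adjusted p = 0.0302), and the call held in 5 of 9 fits that leave out 1 array. Cyp2s1, an epithelial P450, rose from 8.10 ± 0.14 to 9.13 ± 0.34 (SD, n = 3 each; change 1.03 ± 0.21, adjusted p = 0.0164). That call held in 6 of 9 such fits. The dim Cyp2j5, an arachidonic acid epoxygenase, rose by 0.72 ± 0.20 (adjusted p = 0.0484), which held in 2 of 9 fits that leave out 1 array. Its other probe set gave 0.26 and did not pass (limma over single-symbol probe sets, adjusted p = 0.39).

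Of the 6 Cyp members that fell, 3 were dim in all groups. Cyp2u1, a fatty acid hydroxylase, read 7.39, 7.19 and 7.37 on control arrays, 5.25, 5.82 and 6.18 on knockout arrays and 6.60, 6.50 and 6.57 on rescue arrays, with no overlap among the 3 groups. It fell at least 2.95-fold (log2 change -1.56 ± 0.21, adjusted p = 0.00284), and the gene's other probe set gave -0.96. Cyp4a12a, a fatty acid omega-hydroxylase, read 6.83, 6.75 and 7.01 on control arrays and 4.87, 4.99 and 5.82 on knockout arrays, with a dim knockout mean. It fell at least 3.11-fold (log2 change -1.64 ± 0.28, adjusted p = 0.00743). Cyp2f2, Cyp2j9 and Cyp2j13 were the dim ones, with changes of -0.58, -0.90 and -1.01, and these calls held in 1, 5 and 6 of 9 fits that leave out 1 array. None of the 3 passed with the fibroblast marker mean as a covariate (limma adjusted p = 0.369, 0.161 and 0.186). With that covariate Cyp4a12a and Cyp2c68 did not pass either (adjusted p = 0.0613 and 0.278), and Cyp2u1 did (0.0168).

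Cyp1a1 and Cyp1b1, classical targets of the aryl hydrocarbon receptor, did not pass. Cyp1a1, which oxidises polycyclic aromatic compounds, was dim throughout and changed by 0.31 ± 0.26 (adjusted p = 0.487). Cyp1b1 read 5.48, 5.49 and 5.38 on control arrays and 7.19, 6.53 and 5.60 on knockout arrays, a change of 0.99 ± 0.35 (adjusted p = 0.0917). Its knockout arrays stand in the order of the fibroblast marker means, 10.50, 9.97 and 7.51, and the part of other cells in this value was not tested. Other probe sets of Cyp1b1 gave 0.33 and 0.13 and did not pass (limma over single-symbol probe sets, adjusted p = 0.0918 and 0.538). Cyp4f16 read 10.20 to 10.48 on control arrays, 10.23, 10.31 and 12.19 on knockout arrays and 9.48, 10.21 and 11.64 on rescue arrays, so that 1 array in the knockout and 1 in the rescue group stood far above the rest (change 0.57 ± 0.62, adjusted p = 0.61). Another single-symbol probe set of Cyp4f16 gave -0.29 and did not pass (limma over single-symbol probe sets, adjusted p = 0.586). Cyp3a25 varied more still, from 4.25 to 7.71 in knockout and from 3.86 to 8.38 in rescue, and did not pass (adjusted p = 0.365).

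**Figure D2:**
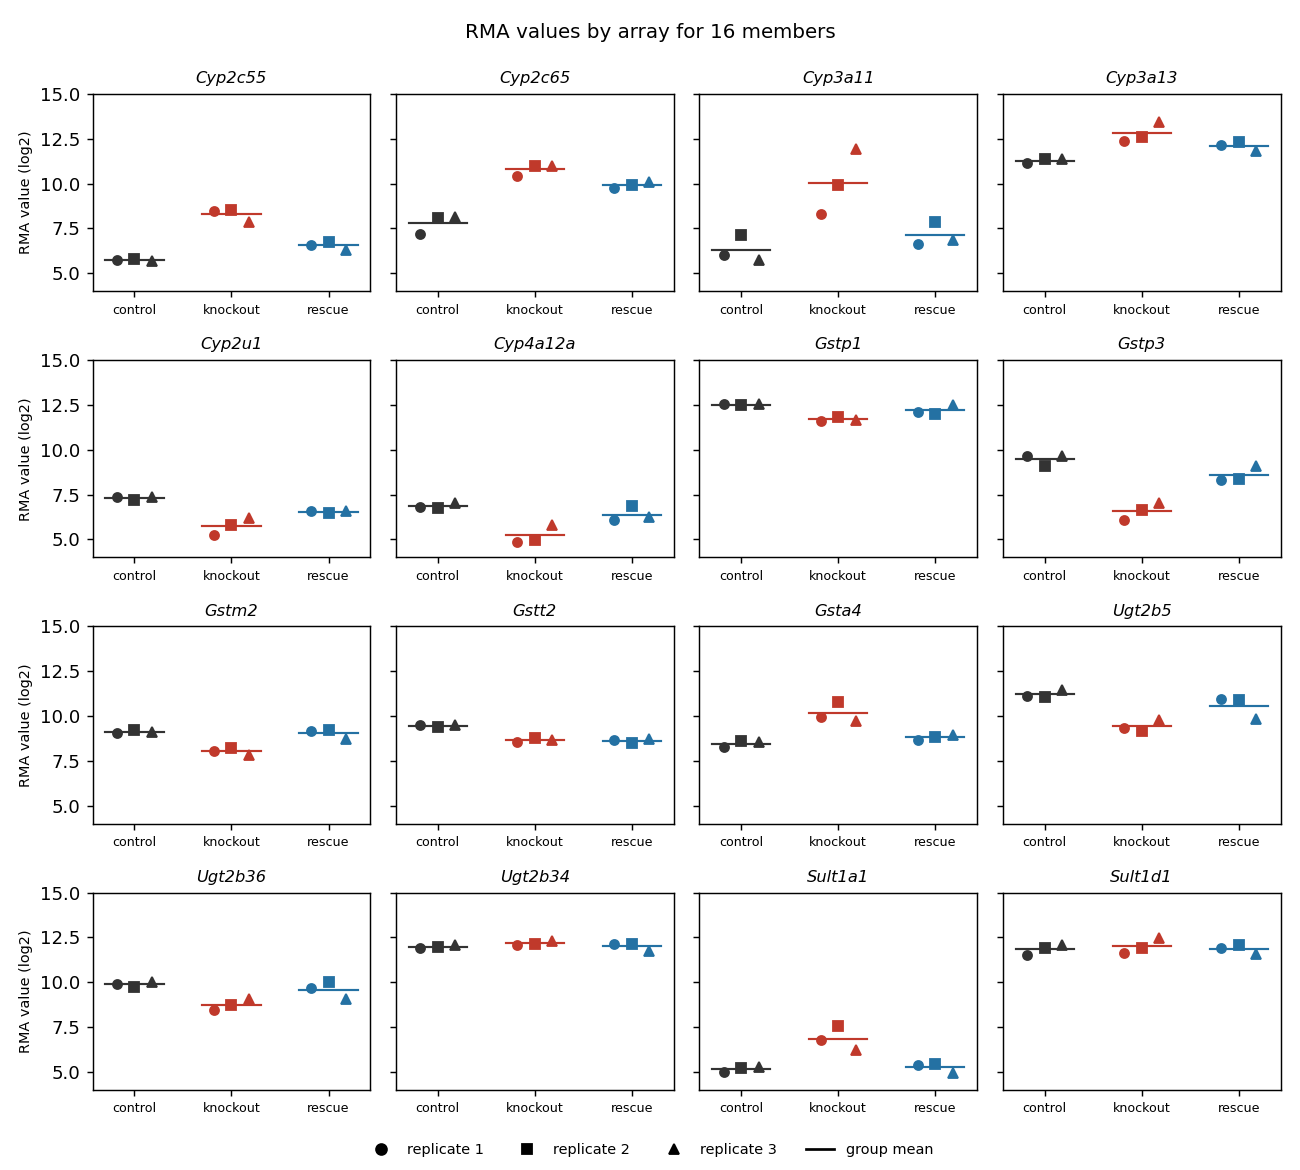
Levels of 16 members on each of the 9 arrays (log2 RMA value; circles, squares and triangles for replicates 1, 2 and 3, lines for group means, n = 3). Cyp2c55, Cyp2c65 and Gsta4 sit highest in the knockout arrays and Gstp3 lowest, and Cyp3a11 spreads from 8.30 to 11.95 among the knockout arrays.

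Of the 19 glutathione S-transferases 8 fell in the knockout. They were both Gstp members, 3 of 7 Gstm members and 2 of 4 Gstt members and Gstz1. The Gstp, Gstm and Gstt members each form a cluster of neighbours. Gstp1, the pi-class enzyme of many epithelia, and its neighbour Gstp3 are shown for the members that fell, again as the 120 bases before the start.
Gstp1, chr19:4037913-4038032, minus strand: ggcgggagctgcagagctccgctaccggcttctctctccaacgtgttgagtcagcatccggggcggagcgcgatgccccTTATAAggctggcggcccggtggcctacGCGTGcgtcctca
Gstp3, chr19:4059448-4059567, minus strand: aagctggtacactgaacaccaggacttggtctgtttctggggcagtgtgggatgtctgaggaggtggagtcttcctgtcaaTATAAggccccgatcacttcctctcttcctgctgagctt

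Gstp3 read 9.64, 9.12 and 9.63 on control arrays, 6.10, 6.63 and 7.06 on knockout arrays and 8.31, 8.35 and 9.12 on rescue arrays. The knockout arrays lay below all others. The fall was 7.30-fold (log2 change -2.87 ± 0.30, adjusted p = 0.00114). Gstp1 read 12.55, 12.48 and 12.54 on control arrays, 11.61, 11.86 and 11.65 on knockout arrays and 12.12, 12.02 and 12.48 on rescue arrays. It fell 1.77-fold (log2 change -0.82 ± 0.13, adjusted p = 0.00637), and its probe set (_a_at) may read several transcripts of Gstp1 or of its copies.

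Of the mu class, Gstm2 read 9.03, 9.22 and 9.08 on control arrays, 8.03, 8.24 and 7.82 on knockout arrays and 9.17, 9.20 and 8.71 on rescue arrays. The fall was 2.12-fold (log2 change -1.08 ± 0.16, adjusted p = 0.00444). Gstm4 fell by 0.94 ± 0.20 (adjusted p = 0.0181) and the dim Gstm6 fell by 0.73 ± 0.17 (adjusted p = 0.0265). These 2 calls held in 6 and 5 of 9 fits that leave out 1 array. Gstm1, Gstm3, Gstm5 and Gstm7 did not pass, with changes of 0.09, -0.30, 0.15 and -0.18. Paralogs of this class are alike in sequence, and the probe sets for Gstm1 and Gstm3 may read more than 1 of them. That of Gstm6 (_a_at) may read several transcripts of Gstm6 or of its paralogs.

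The theta-class Gstt2 read 9.50, 9.41 and 9.49 on control arrays, 8.53, 8.78 and 8.64 on knockout arrays and 8.64, 8.47 and 8.73 on rescue arrays. Rescue and knockout overlapped, and both lay below control. The fall in the knockout was 1.76-fold (log2 change -0.81 ± 0.11, adjusted p = 0.00275). Gstt3 fell by 0.75 ± 0.15 (adjusted p = 0.0141), which did not pass without control replicate 3 (0.0598). Gstz1, which also serves tyrosine breakdown, fell by 1.04 ± 0.27 (adjusted p = 0.0392), and this held in 1 of 9 fits that leave out 1 array.

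Gsta4 was the 1 Gst member that rose. The alpha-class enzyme it encodes conjugates 4-hydroxynonenal, a product of lipid peroxidation. It read 8.25, 8.61 and 8.53 on control arrays, 9.95, 10.77 and 9.74 on knockout arrays and 8.65, 8.82 and 8.97 on rescue arrays. The knockout arrays lay above all others, and the rise was 3.23-fold, by 1.69 ± 0.25 (adjusted p = 0.00423). Its neighbour Gsta2 read 12.01, 11.76 and 11.87 on control arrays and 11.10, 10.32 and 11.32 on knockout arrays, a change of -0.97 ± 0.29 that did not pass (adjusted p = 0.0596). A probe set shared by Gsta1, Gsta2 and Gm3776 gave 0.33 ± 0.31 in the same comparison (limma over all probe sets, adjusted p = 0.58). These probe sets with the Gsta2 symbol thus differed in sign, and neither passed. The omega-class Gsto1 changed by 0.32 ± 0.14 (adjusted p = 0.156).

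The 3 glucuronosyltransferases that fell, Ugt2b5, Ugt2b35 and Ugt2b36, belong to the Ugt2b subfamily, which conjugates steroids, bile acids and drugs. They lie in 1 cluster of 8 members on chromosome 5. Ugt2b5 read 11.14, 11.07 and 11.47 on control arrays, 9.36, 9.15 and 9.75 on knockout arrays and 10.94, 10.88 and 9.83 on rescue arrays. It fell 3.50-fold (log2 change -1.81 ± 0.30, adjusted p = 0.00676). Ugt2b35 fell by 0.99 ± 0.22 (adjusted p = 0.0204), and did not pass without control replicate 2 (0.0733) or 3 (0.0848). Ugt2b36 fell by 1.13 ± 0.25 (adjusted p = 0.0203), a call that held in 4 of 9 such fits. Ugt2b34 in the same cluster read 11.93 to 12.09 on control arrays and 12.09 to 12.28 on knockout arrays (change 0.18 ± 0.13, adjusted p = 0.426). The dim Ugt8a, the ceramide galactosyltransferase of myelin-forming glia, read 3.39, 4.41 and 3.79 on control arrays and 6.18, 6.04 and 4.22 on knockout arrays, and 1.62 ± 0.50 did not pass (adjusted p = 0.0661). The gene's other probe set gave 0.08 and did not pass (limma over single-symbol probe sets, adjusted p = 0.704). The mean of 6 neuron and glia markers was 7.90, 6.65 and 5.70 on the same knockout arrays and 5.54 to 5.59 in control. The part of such cells in the Ugt8a values was not tested. With the fibroblast marker mean as a covariate 0 Ugt members passed limma's adjusted test and 3 of 11 had an unadjusted p under 0.05, with changes of -1.56, -0.93 and -0.76 for Ugt2b5, Ugt2b35 and Ugt2b36 and adjusted p of 0.0602, 0.115 and 0.194.

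Among sulfotransferases Sult1a1, the phenol sulfotransferase, rose. It read 4.97, 5.20 and 5.25 on control arrays, 6.77, 7.57 and 6.20 on knockout arrays and 5.36, 5.45 and 4.96 on rescue arrays. The rise was at least 3.27-fold, by 1.71 ± 0.31 (adjusted p = 0.00949), and rescue lay within or near the control range. With the fibroblast marker mean as a covariate its change was 1.04 (adjusted p = 0.101). The cholesterol sulfotransferase Sult2b1 read 8.18, 7.91 and 8.22 on control arrays and 8.51, 9.21 and 9.83 on knockout arrays, and 1.08 ± 0.31 did not pass (adjusted p = 0.0534). Sult1b1 and Sult1d1, both sulfotransferases of phenols and amines in the gut, changed by 0.29 ± 0.23 (adjusted p = 0.449) and 0.16 ± 0.24 (0.723).

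**Figure D3:**
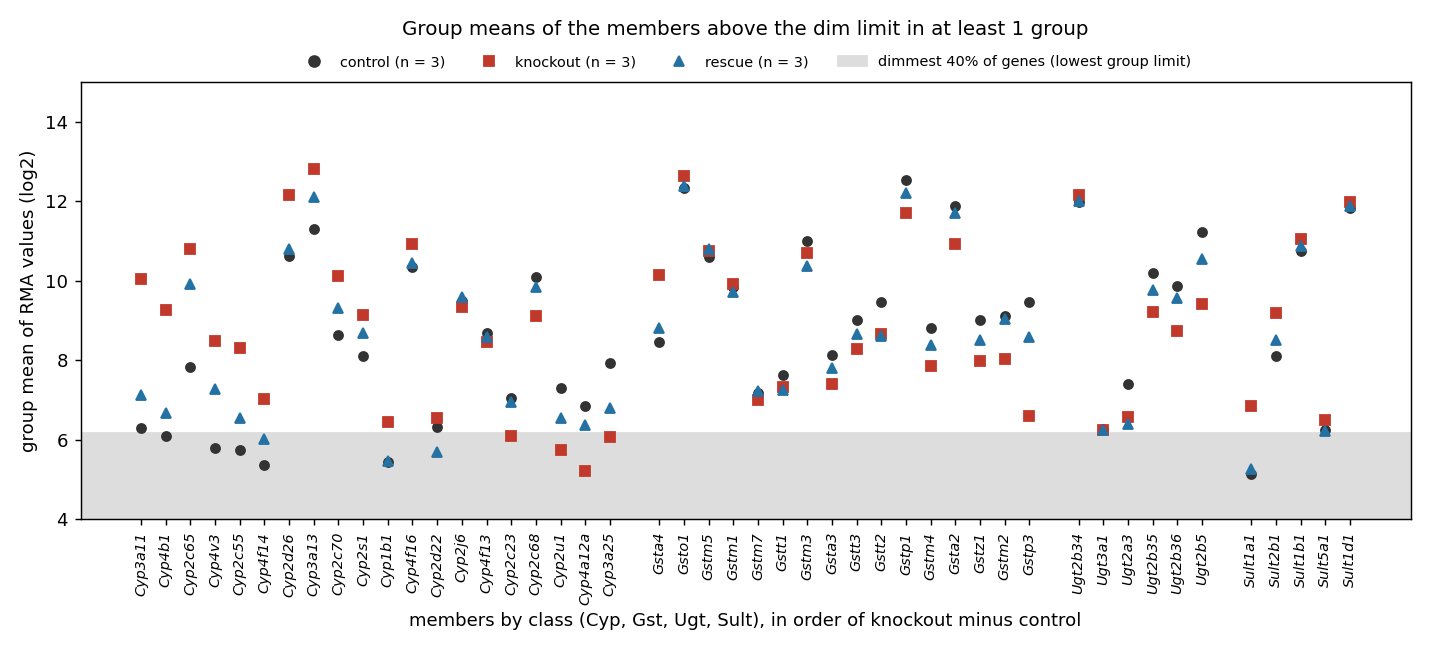
Group means of the 47 members above the dim limit in at least 1 group (log2 RMA value, n = 3 arrays each), by class and in order of knockout minus control, with the dim range shaded. Cyp2c55 and Sult1a1 leave the dim range in the knockout, and most Gst members have the knockout mean below the control mean.

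Values of the classes were also set beside the marker lists on each array. The median Gst change from the control mean was -0.84, -0.67 and -0.47 in knockout replicates 1, 2 and 3, and -0.40, -0.26 and -0.34 in the rescue arrays. On the same 3 knockout arrays the Ugt median was -0.12, -0.50 and 0.01 and the Cyp median 0.03, -0.01 and 0.18. The Sult median there was 0.14, 0.08 and 0.16. The median fibroblast marker change on the same knockout arrays was 3.80, 3.06 and 0.26, and the median enterocyte marker change was -0.30, -0.13 and 0.04. The median enteroendocrine marker change was 1.03, 0.99 and 1.10. With the knockout group reduced to replicate 3, 18 of the 31 called members passed, among them 10 of the 12 Cyp members that rose, 1 of the 6 Cyp members that fell, 4 of the 8 Gst members that fell and 1 of the 3 Ugt members. That array also entered the calls by which these members were counted, so this is a description and no separate support. With the fibroblast marker mean as a covariate 15 of the 31 passed, in the same order 9 of 12, 1 of 6, 4 of 8 and 0 of 3.

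**Figure D4:**
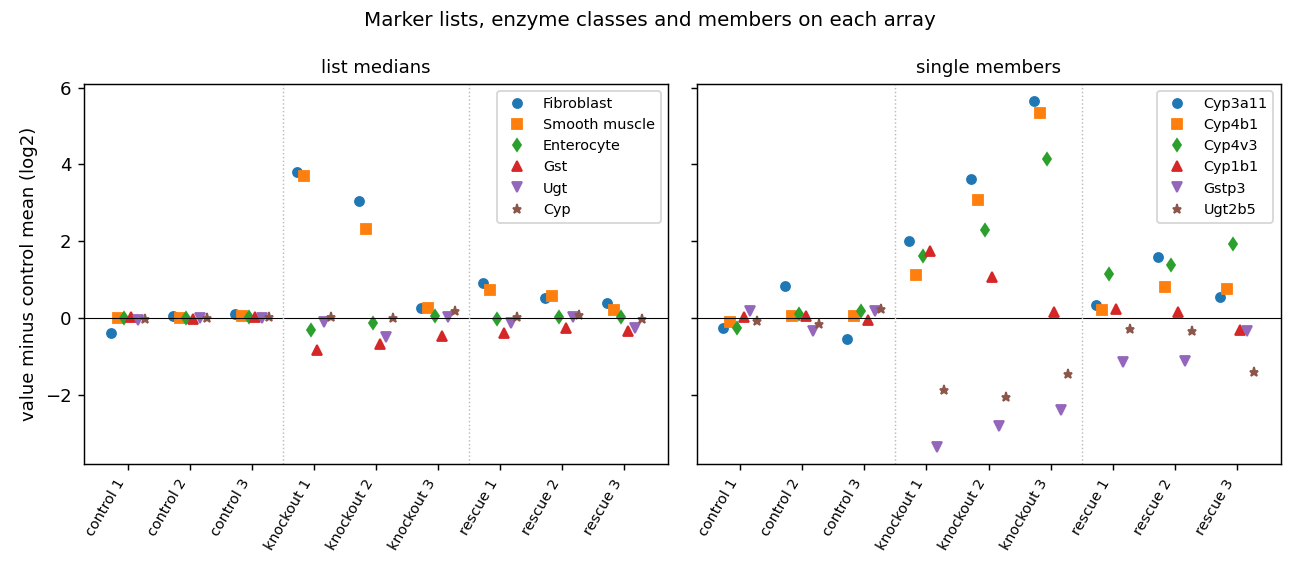
Difference from the control mean on each array (log2), on the left as medians of 3 marker lists and of the Cyp, Gst and Ugt members, on the right for 6 single members. The fibroblast list stands at 3.80 and 3.06 in knockout replicates 1 and 2 and at 0.26 in replicate 3, while the Gst median is -0.84, -0.67 and -0.47.

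The promoter windows, from 250 bases before to 50 after the start, were found for 81 of the 99 members, among 27025 genes. Words were counted on either strand. GCGTG, the core of the aryl hydrocarbon receptor site, lay in 24.7% of members and 35.2% of all genes. TGACNNNGC, the core of the NRF2 site, lay in 9.88% and 14.0%, TTTATG, a CDX word, in 12.3% and 13.6%, and AGGTCA, the nuclear receptor half-site, in 25.9% and 18.1%. TATAA lay in 54.3% of members and 28.0% of all genes. On the gene's own strand, 24 to 36 bases before the start, TATAA stood in 14 of 81 members (17.3%) and in 3.72% of all genes. Of the members that rose, 4 of 13 with a window had it there, Cyp2c55 at 29 and Cyp2c65 at 27 bases before the start. Of the 14 members with a window that fell, none had it in that range, and in both Gstp stretches shown above the word lies farther from the start.

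CAAAGTCCA, a site of the hepatocyte nuclear factor HNF4, stood in 6 of 81 members (7.41%) and in 0.555% of all genes. The 6 were Cyp2c65, Cyp2c68, Cyp2c70, Cyp3a11, Cyp3a16 and Sult1b1. They include 3 members that rose, 1 that fell and 2 that did not pass. This word and TATAA were searched after the letters of member promoters had been read, and neighbouring Cyp genes share ancestry, so the windows are not independent. A match describes the letters and not binding.

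Of the sensors that set the level of these enzymes, 14 were measured, and 1 rose and 5 fell in the knockout (42.9% called, against 14.1% of all genes). Of the 14, 13 lay above the dim limit in at least 1 group, and 20.2% of all genes above it passed. Vdr, the vitamin D receptor, read 9.04, 8.76 and 8.88 on control arrays, 7.34, 7.33 and 7.61 on knockout arrays and 7.66, 7.96 and 7.99 on rescue arrays, and fell by 1.47 ± 0.13 (adjusted p = 0.00069). Nr1h4, the bile acid receptor FXR, read 11.13 to 11.26 on control arrays, 10.11 to 10.27 on knockout arrays and 10.82 to 11.45 on rescue arrays, and fell by 1.05 ± 0.16 (adjusted p = 0.00512). Cdx2, the intestinal homeobox factor, fell by 0.74 ± 0.14 (adjusted p = 0.0107). The others called were Nr1i3 (the receptor CAR) and Keap1 (the NRF2 inhibitor), which fell (changes of -1.06 and -0.46), and Ahr, which rose by 0.90. The Nr1i3 call held in 1 of 9 fits that leave out 1 array. Nr1i2, the pregnane X receptor, changed by -0.11 ± 0.23 (adjusted p = 0.808), and Hnf4a by -0.73 ± 0.21 (adjusted p = 0.0531). Nr1i3, Keap1, Ahr, Nr1i2 and Hnf4a were named after their values were seen.

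The other genes of the route are set against the same 14.1% of all genes. Most genes of each list lay above the dim limit in at least 1 group, so the 20.2% of all genes above it is the nearer share. Of 6 P450 partners 1 fell (16.7%), Pgrmc2, a haem-binding membrane protein (log2 change -0.87 ± 0.19, adjusted p = 0.0203), a call that held in 4 of 9 fits that leave out 1 array. Of 42 other phase I enzymes 4 rose and 12 fell (38.1% called). Ephx1, the microsomal epoxide hydrolase, read 4.61, 4.73 and 4.59 on control arrays, 7.65, 7.68 and 6.64 on knockout arrays and 5.54, 5.21 and 5.76 on rescue arrays, a rise of at least 6.41-fold (2.68 ± 0.27, adjusted p = 0.00106). Akr1c14, the 3-alpha-hydroxysteroid dehydrogenase, fell by 3.12 ± 0.40 (adjusted p = 0.00272), and Aldh1b1, a mitochondrial aldehyde dehydrogenase (log2 change -1.46 ± 0.18, adjusted p = 0.00237).

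Of 23 further phase II and cofactor genes 1 rose and 3 fell (17.4% called), a share between the 14.1% of all genes and the 20.2% of those above the dim limit. The pair that makes PAPS, the sulfate donor of all sulfotransferases, split: Papss1 fell by 0.72 ± 0.11 (adjusted p = 0.00601) and Papss2 rose by 0.93 ± 0.19 (adjusted p = 0.0161). Mgst1, a microsomal glutathione transferase, fell by 0.73 ± 0.19 (adjusted p = 0.0377), a call that held in 2 of 9 fits that leave out 1 array. Of 19 transporters 4 rose and 2 fell (31.6% called). Abcb1b, a P-glycoprotein gene, read 4.51, 4.80 and 4.47 on control arrays, 8.01, 8.74 and 7.21 on knockout arrays and 5.58, 5.42 and 5.41 on rescue arrays, a rise of at least 10.5-fold (3.40 ± 0.32, adjusted p = 0.000875). Slco3a1, an organic anion carrier, rose by 0.94 ± 0.12 (adjusted p = 0.00261), and Abcc6, a transporter of the multidrug resistance protein family, fell by 1.42 ± 0.26 (adjusted p = 0.0106).

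Between rescue and knockout, 6 of the 99 members passed, 2 higher and 4 lower in rescue, where 2.31% of all genes passed, 1.23% higher and 1.08% lower. Gstp3 exceeded its knockout level in rescue by 1.99 ± 0.30 (adjusted p = 0.0158) and Gstm2 by 0.9997 ± 0.16 (adjusted p = 0.0218). The 4 that were lower were Cyp2c55 with a difference of -1.75 ± 0.19 (adjusted p = 0.00569), Gsta4 with -1.34 ± 0.25 (adjusted p = 0.035), Sult1a1 with -1.59 ± 0.31 (adjusted p = 0.0403) and Cyp2d22 with -0.87 ± 0.16 (adjusted p = 0.0371). The first 5 were also called between knockout and control, in the other direction; both comparisons share the knockout arrays. Cyp2d22 read 6.30, 6.12 and 6.56 on control arrays, 6.56, 6.64 and 6.47 on knockout arrays and 5.46, 6.01 and 5.61 on rescue arrays, so that rescue was lowest. The gene's other probe set gave -0.53 between rescue and knockout and did not pass (limma over single-symbol probe sets, adjusted p = 0.289). All rescue arrays lay above all knockout arrays for 10 members and below them for 16, where 10.6% and 7.5% of all genes did so, 18.1% in all. The median change of the members was -0.06, and that of all genes 0.04.

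The number of calls moved with single arrays. The 6 became 3, 3 and 2 without control replicate 1, 2 or 3, 2, 3 and 3 without rescue replicate 1, 2 or 3, and 20 without knockout replicate 3. The Gstp3 call was lost without rescue replicate 3 (adjusted p = 0.0512), and the Gstm2 call without control replicate 3, knockout replicate 1 or rescue replicate 1 or 2. The Gsta4, Sult1a1 and Cyp2d22 calls each held in 2 of the 9 fits that leave out 1 array, and the Cyp2c55 call in all 9. Gsta4 and Sult1a1 passed only without knockout replicate 2 or 3, and Cyp2d22 only without knockout replicate 3 or rescue replicate 2.

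Among the other genes of the route, Nr1h4 in rescue exceeded its knockout level by 0.90 ± 0.16 (adjusted p = 0.0313), and 1 of 14 sensors was called. Of the 42 other phase I enzymes 5 were higher and 1 lower. Aldh1b1 was higher by 1.10 ± 0.18 (adjusted p = 0.0244) and Ces1f, a carboxylesterase, by 1.31 ± 0.20 (adjusted p = 0.016). Ephx1 was lower (difference -1.82 ± 0.27, adjusted p = 0.016), as were 2 of 19 transporters, Abcb1b (difference -2.52 ± 0.32, adjusted p = 0.00989) and Slco3a1 (difference -0.69 ± 0.12, adjusted p = 0.0301). Papss1 was higher by 0.58 and Papss2 lower, with a difference of -0.92 (adjusted p = 0.0422 and 0.0499). Of these calls, those of Abcb1b, Ephx1 and Ces1f held in 9, 7 and 7 of 9 fits that leave out 1 array, that of Aldh1b1 in 4, that of Nr1h4 in 2, and those of Slco3a1, Papss1 and Papss2 in 1 each.

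Between rescue and control, 2 of the 99 members passed, 1 higher and 1 lower in rescue, where 0.126% of all genes passed, 0.055% higher and 0.0715% lower. Cyp2c65 was higher in rescue 4.31-fold, by 2.11 ± 0.26 (adjusted p = 0.0391), and its 3 rescue arrays lay between knockout and control. Gstt2 was lower 1.81-fold (log2 change -0.85 ± 0.11, adjusted p = 0.0391), with the knockout and rescue arrays overlapping. Both calls were lost without any 1 control array, any 1 rescue array or knockout replicate 2, where 0 members passed limma's adjusted test and 14 to 20 had an unadjusted p under 0.05. Without knockout replicate 3 the count was 4. Of the sensors, Vdr was lower in rescue than in control (difference -1.03 ± 0.13, adjusted p = 0.0441), a call that held in 1 of 9 fits that leave out 1 array. All rescue arrays lay above all control arrays for 14 members and below them for 16, where 6.74% and 9.9% of all genes did so, 16.6% in all. The median change of the members was 0.00, and that of all genes -0.01.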

How the data were processed

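RNA of 9 samples was measured on 9 Affymetrix mouse arrays. The authors deposited log2 RMA values, with 1 value for every probe set on each array, made with RMA and Partek 6.5 per the submitters' processing notes; what each tool did is not given in the sources used here. Values were used as deposited. Of 45101 probe sets, 34958 carried 1 symbol in the 2016 platform annotation, 932 several and 9211 none, and 18193 genes resulted. No pair of arrays was identical (0 of 36).

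Group means of all 9 arrays were fitted with limma 3.58.1 (lmFit and eBayes, R 4.3.3, data handling with data.table, version 1.17.8), and p-values, two-sided, were adjusted by Benjamini-Hochberg over all genes. Errors of changes are standard errors with 6 residual degrees of freedom plus the prior; their median was 0.147. The number of arrays limits the precision. On simulated data 36 of 50 genes changed by 1 (log2) were recovered. The simulated noise was independent, with 1 SD per gene shared by all groups. In the data the median SD was 0.225 in knockout and 0.104 in control, so recovery there may differ.

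Named were, per class, the 3 members with the highest control mean, up to 6 called between knockout and control by smallest p, up to 3 in each rescue comparison, Cyp1a1, Cyp1b1, Cyp3a11, Gsta4, Gstp1 and Sult1b1, and up to 3 called genes per pathway list. Cyp2c29, Cyp2c68, Cyp2c70, Cyp2f2, Cyp2j5, Cyp2j9, Cyp2j13, Cyp2s1, Cyp3a25, Cyp4b1, Cyp4v3, Gstm1, Gstm3 to Gstm7, Gstz1 and Ugt8a were named after their values were seen. Members and lists were chosen with earlier results of these data known. Alternatives covered probe set choice, dim genes, normalization, array weights, the variance trend, the replicate block, a fibroblast covariate and each array left out. One was added after seeing the data: knockout replicate 3 standing for the knockout group, whose spread is then taken from the other groups.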

Additional observations from a re-analysis of the deposited data

How the results depend on the processing

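Of the named genes, 47 passed between knockout and control, 15 between rescue and knockout and 3 between rescue and control, and none of these changes turned direction under the alternatives run, which did lose 167, 113 and 29 of 927, 298 and 59 such calls. Against 31 members called between knockout and control, 20 were called from only the 6 arrays compared, 53 with array weights, and 14 to 40 with 1 array left out. The 8 Gst members lower became 5 without probe sets ending in _x_at, _s_at or _a_at and 5 from the 6 arrays. They became 13 with array weights, 5 with the fibroblast covariate, and 4 to 11 with 1 array left out. The 3 Ugt members lower became 6 with array weights and 0 with the fibroblast covariate (limma, 3 of 11 at an unadjusted p under 0.05). With 1 array left out they became 1 to 4, and the 12 Cyp members higher became 5 to 14. The member median of 0.03 became -0.0547 with arrays centred, 0.14 with the fibroblast covariate and 0.15 with the knockout group reduced to replicate 3.

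Between rescue and knockout the 6 calls became 0 from the 6 arrays (limma, 24 at an unadjusted p under 0.05), 25 with array weights, 13 with the fibroblast covariate, 14 with this reduction, and 2 to 20 with 1 array left out. The median of -0.06 became 0.037, -0.17 and -0.18 with array weights, the covariate and this reduction, and -0.083 to 0.054 with 1 array left out (0.054 without knockout replicate 3). Between rescue and control the 2 calls became 1 without probe sets ending in _x_at, _s_at or _a_at, and 8 from the 6 arrays. They became 11 with array weights, 1 with the variance trend, 4 with the covariate, and 0 to 4 with 1 array left out. The cause of these shifts was not tested.

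Replicate numbers were not used as pairs in the main fits, and the sample titles state no pairing. Same-numbered deviations of knockout and control correlated at -0.22, 0.34 and -0.01. Those of rescue and knockout correlated at 0.40, -0.11 and -0.07, and those of rescue and control at 0.01, -0.11 and -0.15. With the replicate number as a block, 31, 6 and 1 members were called in the 3 comparisons. Arrays have no read depth, and genes in the dim range have only a bound.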

Other observations

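Ugt1a enzymes glucuronidate bilirubin and many drugs, and their transcripts share the last exons of 1 locus. The arrays read this locus with 3 probe sets that carry 8 Ugt1a symbols, which were therefore outside the 99 members. The first read 12.41, 12.39 and 12.46 on control arrays, 11.78, 11.95 and 11.91 on knockout arrays and 12.23, 12.30 and 12.20 on rescue arrays (log2). Its knockout arrays lay below all others, and the change from control was -0.54 ± 0.09 (limma over all probe sets, adjusted p = 0.00777). The other 2 also fell, with changes of -0.47 ± 0.09 (adjusted p = 0.0147) and -0.91 ± 0.14 (adjusted p = 0.00655). Between rescue and knockout the changes of the 3 were 0.36, 0.32 and 0.66, and none passed (adjusted p = 0.0901, 0.135 and 0.0619). Which of the 8 transcripts these values follow cannot be read from the probe sets.

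A probe set shared by Cyp4a10 and Cyp4a31, fatty acid hydroxylases, read 6.63, 7.18 and 6.66 on control arrays, 6.43, 8.06 and 9.55 on knockout arrays and 5.18, 6.67 and 8.14 on rescue arrays. Its values differed widely within both groups, and the change between knockout and control of 1.19 ± 0.85 did not pass (adjusted p = 0.446).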
